A study of Danio rerio with 16 samples.

Results

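Neuropeptides are short signalling peptides cut from larger precursor proteins and released from the dense-core vesicles of neurons. In the hypothalamus, separate groups of neurons make peptides that promote waking or sleep, start or stop feeding, and adjust water balance and the stress response. The genes described here are hcrt (hypocretin, also called orexin), agrp (agouti-related peptide), npy (neuropeptide Y), avp (arginine vasopressin, the vasotocin of fish), oxt (oxytocin, the isotocin of fish), vip (vasoactive intestinal peptide), tac1 (tachykinin 1, the precursor of substance P) and cart3 (a gene of the cocaine- and amphetamine-regulated transcript family). They were taken by gene name from the deposited count tables: 7 of the 8 names were found, among 26183 genes in all, and all 7 passed the filter on low counts. The eighth, agrp, was not analysed here.

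The libraries came from zebrafish (Danio rerio) larvae aged 7 days, after an exposure of 7 days to PFBA (perfluorobutanoic acid), which belongs to the short-chain perfluorinated acids. There were 16 libraries in 4 groups. The control group received DMSO (dimethyl sulfoxide, the solvent) and had n = 4, the group at 0.1 µg/L PFBA had n = 3, that at 1 µg/L had n = 4, and that at 10 µg/L had n = 5. The sources used here give no strain, genotype or number of larvae in a sample, and nothing states that the samples came from separate clutches or tanks, so p-values measure the spread between these samples, which may be technical. The 3 doses were each set against the same 4 control libraries. The question of this comparison is whether, and at which dose, transcripts of these peptides differed from control.

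Total reads per library ranged from 9708464 to 13862232. In the 0.1 µg/L group, libraries 1 and 2 differed from the remaining 14 in several measures. Their scores on the first principal component, which held 38.9% of the variance, were 174.7 and 101.2, against -43.8 to 9 in the others. Their normalization factors were 0.58 and 0.74, against 0.93 to 1.14. A factor below 1 raises every scaled level of a library. The 10 most abundant genes took 17.05% and 14.43% of their reads, against 9.46% to 11.89%. For this reason the 0.1 µg/L values are also given without them, in a fit where library 3 alone stands for 0.1 µg/L and is assumed to vary like the other groups. The spread of each gene is estimated over all 16 libraries together, so libraries 1 and 2 also enter the tests at 1 and 10 µg/L. The label gives the tissue as larval fish, which is read here as whole larvae, so RNA from every organ is mixed: fewer cells of a type and less RNA per cell cannot be told apart, and reads of vip, tac1 or npy from outside the hypothalamus cannot be separated from those within it. Neuronal genes were abundant: the summed level of 22 pan-neuronal markers was 7628 to 9650 CPM (read counts scaled to a common library size) over the 16 libraries. Hormone genes of the pituitary and the pancreatic islet, organs that a whole larva holds, had few reads. In the pituitary, prl (prolactin) and pomca (pro-opiomelanocortin) had at most 6 reads in any library, while gh1 (growth hormone) had 9 to 87. In the islet, ins (insulin) had 0 to 22 reads a library, and the glucagon genes gcga and gcgb had 5 to 22 and 2 to 30. Of 12 pituitary symbols 9 were in the tables and only gh1 was tested.

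At 10 µg/L none of the 7 genes passed the test (edgeR's quasi-likelihood test, Benjamini-Hochberg adjusted p under 0.05 over 19092 genes), where 43 of all genes, or 0.225%, did. None of the 7 passed at 1 µg/L, beside 13 of all genes, or 0.0681%. None of the 7 passed at 0.1 µg/L, and 0 of all genes did, or 0%. At an unadjusted p under 0.05, the counts of the 7 were 1 at 10 µg/L, 1 at 1 µg/L and 5 at 0.1 µg/L, and those of all genes 1572 (8.23%), 934 (4.89%) and 4157 (21.8%). DESeq2 on the same counts called 1 of the 7 at 10 µg/L (cart3), 0 at 1 µg/L and 3 at 0.1 µg/L (npy, oxt and cart3), while limma-voom called 0 at each dose. Of all genes, limma-voom called 61 at 10 µg/L, 22 at 1 µg/L and 0 at 0.1 µg/L. DESeq2 called 239 of all genes at 10 µg/L, 57 at 1 µg/L and 1396 at 0.1 µg/L. These and later DESeq2 counts stand beside the 19092 genes of the edgeR test, though DESeq2 filtered genes in its own way. When library 3 of the lowest dose was left out, edgeR called 5 of the 7 at that dose (npy, avp, oxt, tac1 and cart3), beside 6256 of all genes. The main fit tested 19092 genes, so calls were widespread without library 3, and whether the 7 stood out among them was not tested. Fitted with only the control and 10 µg/L libraries, edgeR called 0 of the 7, beside 157 of all genes. With only the control and 1 µg/L libraries it called 0 of the 7, beside 6 of all genes. In the fit of all 16 libraries, the gene that stood farthest from control relative to its spread at 10 and 1 µg/L was cart3, and at 0.1 µg/L it was oxt.

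Hypocretin neurons are few in the larval brain, and in mammals the loss of this peptide causes narcolepsy. The gene hcrt (ENSDARG00000070932) lies on the plus strand of chromosome 3, from 17537352 to 17541448 in the build GRCz11 that the submitters name, with an exonic length of 483 bases in the deposited tables. It was the least read of the 7, with 4 to 25 reads in a library and 206 in all. Its mean level was 1.31 ± 0.648 CPM in control (SD, n = 4), 0.866 ± 0.174 CPM at 0.1 µg/L (n = 3), 0.905 ± 0.357 CPM at 1 µg/L (n = 4) and 1.03 ± 0.548 CPM at 10 µg/L (n = 5). All 3 exposed means lay below the control mean, but the control libraries alone ran from 0.445 to 2.01 CPM and held every 0.1 and 1 µg/L library within that range. The log2 fold change at 10 µg/L was -0.32, with a 95% interval from -1.38 to 0.75 (edgeR adjusted p = 0.969). It was -0.53 at 1 µg/L, with an interval from -1.66 to 0.61 (edgeR adjusted p = 0.998), and at 0.1 µg/L it was -0.59, with an interval from -1.86 to 0.67 (edgeR adjusted p = 0.558), and -0.89 from library 3 alone. The depth limits this gene: library 4 at 10 µg/L had 4 reads, whose exact Poisson 95% interval is 1.09 to 10.24, and such intervals cover counting error only.

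Neuropeptide Y stimulates feeding in mammals and fish, and in zebrafish larvae it promotes sleep. The gene npy (ENSDARG00000036222) lies on the minus strand of chromosome 19, from 20110699 to 20114149, with an exonic length of 1913 bases and 188 to 441 reads a library. Control libraries had 18.2, 18.8, 21.8 and 25.2 CPM. The 0.1 µg/L libraries had 50.6, 45.8 and 22.1 CPM. The 1 µg/L libraries had 21.6, 24.5, 14.9 and 30.6 CPM, and the 10 µg/L libraries had 22.2, 20.3, 32.8, 23.3 and 23.2 CPM. Libraries 1 and 2 at 0.1 µg/L were above all other libraries, library 3 of that dose lay inside the control range, and both higher doses overlapped control. The log2 fold change was 0.91 at 0.1 µg/L, with a 95% interval from 0.33 to 1.48 (edgeR adjusted p = 0.103; DESeq2 adjusted p = 0.0232). It was 0.1 without libraries 1 and 2 of that dose, and 1.2 without library 3 (edgeR adjusted p = 0.00149). The value was 0.12 at 1 µg/L, with an interval from -0.42 to 0.66, and at 10 µg/L it was 0.21, with an interval from -0.3 to 0.72 (edgeR adjusted p = 0.998 and 0.929).

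Peptides of the cocaine- and amphetamine-regulated transcript family reduce food intake in mammals. The gene cart3 (ENSDARG00000035852) lies on the minus strand of chromosome 7, from 52962632 to 52963493, with an exonic length of 627 bases and 124 to 224 reads a library. Control libraries had 9.73, 9.34, 10.5 and 11.6 CPM. The 0.1 µg/L libraries had 19.8, 16.2 and 10.7 CPM. The 1 µg/L libraries had 15.9, 16.5, 12.1 and 17 CPM, and the 10 µg/L libraries had 14.8, 17.4, 17.5, 17.9 and 14.0 CPM. Every library at 1 and 10 µg/L was above every control library, while library 3 at 0.1 µg/L lay within the control range. The means were 16.3 ± 1.78 CPM at 10 µg/L (SD, n = 5) and 10.3 ± 0.977 CPM in control (n = 4), a log2 fold change of 0.67 with a standard error (SE) of 0.19 and a 95% interval from 0.26 to 1.07. In edgeR the unadjusted p was 0.00303 and the adjusted p 0.222, rank 260 of all genes by p. DESeq2 gave a log2 fold change of 0.69 and an adjusted p of 0.0447. The authors' deposited table gives cart3 a log2 fold change of 0.69 at 10 µg/L and an adjusted p of 0.00711, the only member below 0.05 in any of their 3 tables. The mean was 15.4 ± 2.23 CPM at 1 µg/L (n = 4) and the log2 fold change 0.58 (interval 0.16 to 1.01; edgeR adjusted p = 0.844). For the 0.1 µg/L group the log2 fold change was 0.59 (interval 0.14 to 1.05; edgeR adjusted p = 0.15; DESeq2 adjusted p = 0.046), and 0.08 from library 3 alone. Before scaling, libraries 1, 2 and 3 at 0.1 µg/L had 159, 156 and 124 cart3 reads, against 126 to 151 in control. The higher CPM of libraries 1 and 2 rest largely on their normalization factors of 0.58 and 0.74. Leaving out any 1 library kept the 10 µg/L value between 0.62 and 0.73, with edgeR adjusted p from 0.0895 to 0.537.

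**Figure D1:**
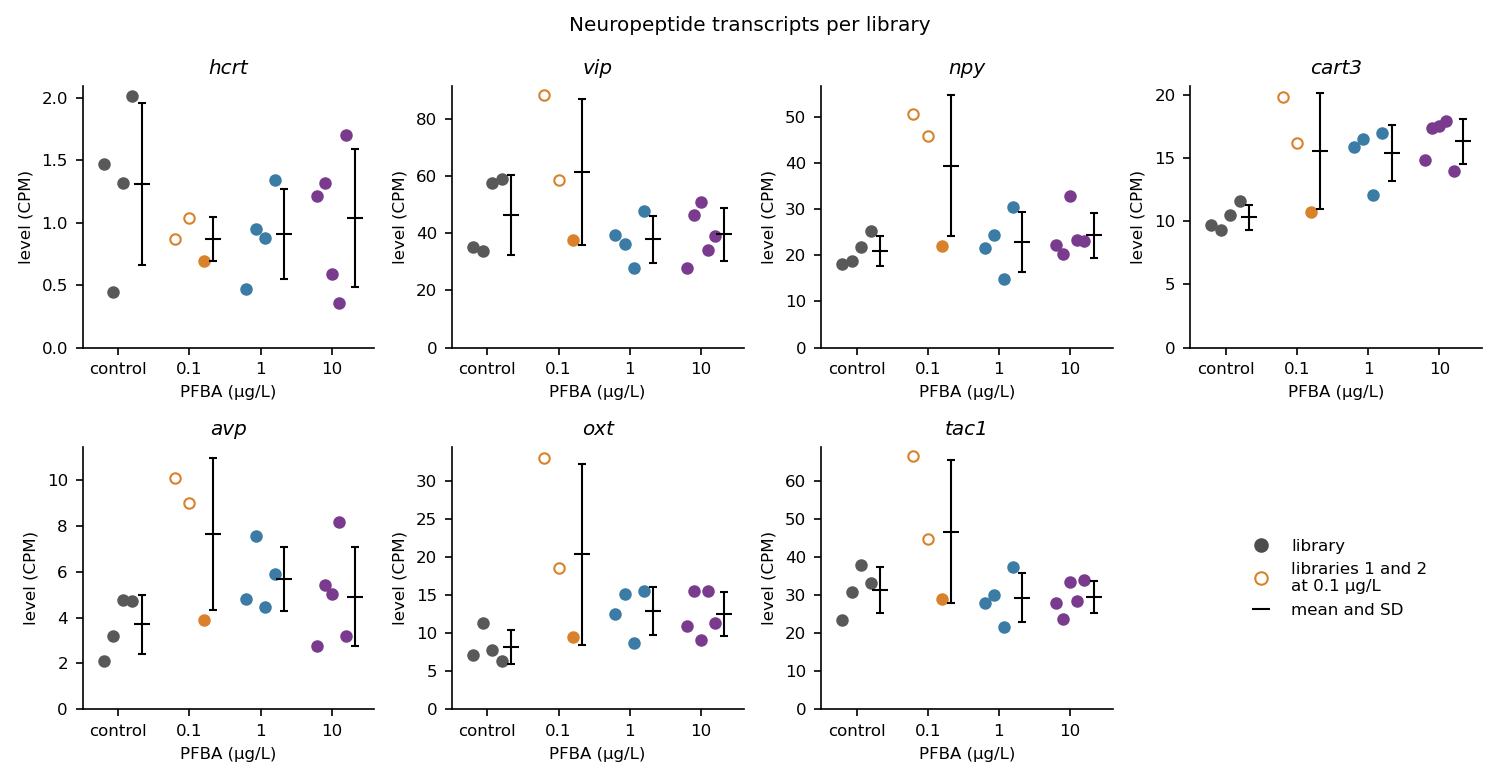
Level of each of the 7 genes in CPM (y axis, from 0) in every library, by PFBA dose (x axis, control at the left); points are libraries, open points are libraries 1 and 2 at 0.1 µg/L, and bars are the mean and SD of each group. For cart3 the 10 µg/L libraries span 14.0 to 17.9 CPM and the control libraries 9.34 to 11.6 CPM, and for the other genes at 10 µg/L the ranges overlap.

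Vasotocin and isotocin are made by large neurosecretory neurons of the preoptic area, which project to the posterior pituitary. Vasotocin acts in water balance and the release of stress hormones, and isotocin neurons of zebrafish larvae respond to noxious stimuli. The gene avp (ENSDARG00000058567) lies on the plus strand of chromosome 8, from 1148876 to 1157380, with an exonic length of 517 bases and 27 to 91 reads a library. Its mean level was 3.7 ± 1.3 CPM in control (SD, n = 4), 7.66 ± 3.32 CPM at 0.1 µg/L (n = 3), 5.68 ± 1.4 CPM at 1 µg/L (n = 4) and 4.92 ± 2.15 CPM at 10 µg/L (n = 5). The control range was 2.09 to 4.78 CPM and the 10 µg/L range 2.78 to 8.19 CPM, so the groups overlapped. The log2 fold change was 0.41 at 10 µg/L (interval -0.38 to 1.19; edgeR adjusted p = 0.888) and 0.61 at 1 µg/L (interval -0.21 to 1.44; edgeR adjusted p = 0.998). For 0.1 µg/L it was 1.04 (interval 0.16 to 1.92; edgeR adjusted p = 0.176), 0.1 without libraries 1 and 2 of that dose, and 1.37 without library 3 (edgeR adjusted p = 0.0172).

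The gene oxt (ENSDARG00000042845) lies on the plus strand of chromosome 5, from 72087619 to 72093253, with an exonic length of 697 bases and 79 to 266 reads a library. A gene on the opposite strand, CABZ01087674.1, overlaps it, and since the sources used here do not give the strand setting of the counting, its counts are less certain. Control libraries had 7.18, 11.4, 7.82 and 6.35 CPM. The 0.1 µg/L libraries had 33.1, 18.6 and 9.48 CPM. The 1 µg/L libraries had 12.5, 15.1, 8.67 and 15.6 CPM, and the 10 µg/L libraries had 11.0, 15.6, 9.15, 15.6 and 11.3 CPM. Of the control libraries, 3 lay below every exposed library, and control library 3 lay within the range of each exposed group. The means were 12.5 ± 2.91 CPM at 10 µg/L (SD, n = 5) and 8.19 ± 2.24 CPM in control (n = 4), a log2 fold change of 0.61 with an interval from -0.05 to 1.27 (edgeR unadjusted p = 0.0678, adjusted p = 0.656). At 1 µg/L it was 0.66, with an interval from -0.03 to 1.35 (edgeR unadjusted p = 0.0593, adjusted p = 0.998). For the lowest dose, 0.1 µg/L, it was 1.31, with an interval from 0.57 to 2.05 (edgeR adjusted p = 0.0864; DESeq2 adjusted p = 0.00902). That last value was 0.24 without libraries 1 and 2, and 1.65 without library 3 (edgeR adjusted p = 0.000846). In a fit of only the control and 10 µg/L libraries, the oxt log2 fold change was 0.62 (edgeR unadjusted p = 0.0228, adjusted p = 0.376).

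Vasoactive intestinal peptide couples clock neurons of the suprachiasmatic nucleus in mammals and is also a transmitter of gut neurons. The gene vip (ENSDARG00000078247) lies on the minus strand of chromosome 13, from 46987955 to 46991577, with an exonic length of 1109 bases and 350 to 834 reads a library. Its mean level was 46.4 ± 13.9 CPM in control (SD, n = 4), 61.6 ± 25.5 CPM at 0.1 µg/L (n = 3), 37.9 ± 8.3 CPM at 1 µg/L (n = 4) and 39.6 ± 9.31 CPM at 10 µg/L (n = 5). The control libraries formed a low pair at 35.1 and 33.7 CPM and a high pair at 57.7 and 59.1 CPM, and the 10 µg/L libraries, at 27.8 to 51.0 CPM, overlapped them. The log2 fold change was -0.23 at 10 µg/L (interval -0.77 to 0.31; edgeR adjusted p = 0.927) and -0.29 at 1 µg/L (interval -0.86 to 0.28; edgeR adjusted p = 0.998). At 0.1 µg/L it was 0.41 (interval -0.21 to 1.02; edgeR adjusted p = 0.404), and -0.27 without libraries 1 and 2 of that dose.

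Substance P and neurokinin A, both cut from the tac1 precursor, act in pain, arousal and gut movement. The gene tac1 (ENSDARG00000014490) lies on the plus strand of chromosome 19, from 25649626 to 25653185, with an exonic length of 910 bases and 273 to 548 reads a library. Control libraries had 23.5, 30.8, 37.9 and 33.3 CPM. The 0.1 µg/L libraries had 66.6, 44.7 and 28.9 CPM. The 1 µg/L libraries had 27.9, 30.1, 21.7 and 37.3 CPM, and the 10 µg/L libraries had 28.0, 23.8, 33.5, 28.4 and 33.9 CPM. The 10 µg/L libraries all lay inside the control range, and only libraries 1 and 2 at 0.1 µg/L exceeded the highest control library. Before scaling, those libraries had 536 and 431 tac1 reads, inside the control range of 304 to 548. Their total reads were 13862232 and 13005032, against 11353254 to 13735339 in control. The excess in CPM came with their normalization factors of 0.58 and 0.74. The log2 fold change was -0.09 at 10 µg/L (interval -0.56 to 0.38; edgeR adjusted p = 0.993) and -0.1 at 1 µg/L (interval -0.59 to 0.39; edgeR adjusted p = 0.998). At 0.1 µg/L it was 0.57 (interval 0.04 to 1.1; edgeR adjusted p = 0.202), -0.09 without libraries 1 and 2, and 0.83 without library 3 (edgeR adjusted p = 0.0119).

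**Figure D2:**
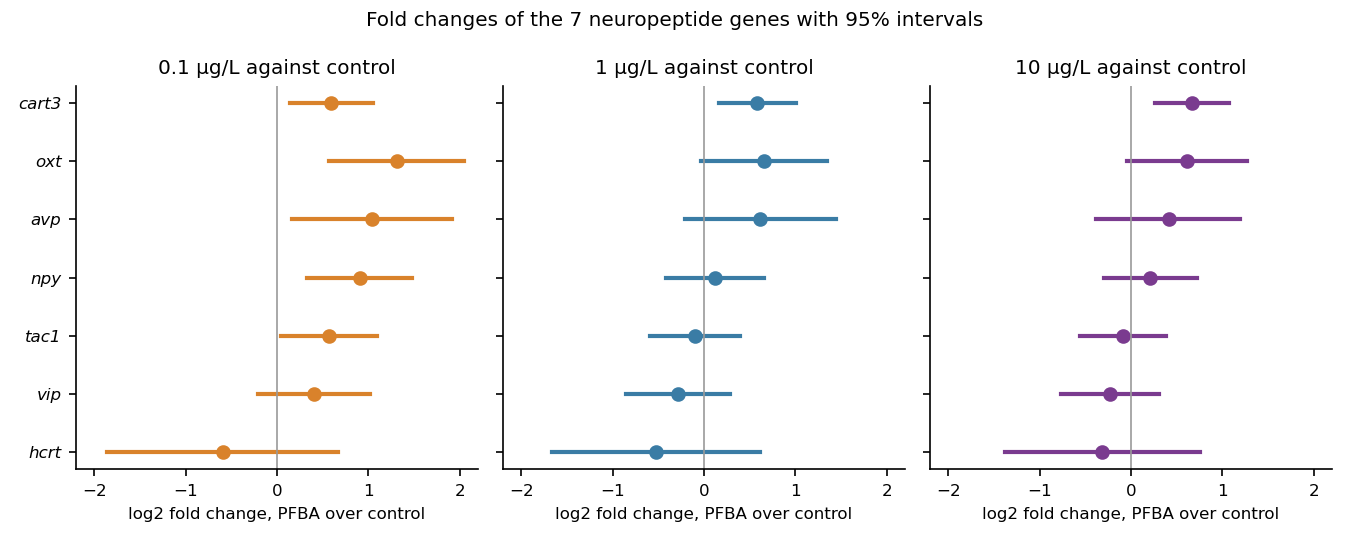
Log2 fold change of PFBA over control (x axis) for the 7 genes (rows) at each dose, as points with 95% intervals from the edgeR fit of all 16 libraries. The cart3 interval lies above 0 at each dose (0.26 to 1.07 at 10 µg/L), and hcrt has the widest interval at each dose (-1.38 to 0.75 at 10 µg/L). At 0.1 µg/L the intervals of npy, avp, oxt and tac1 also lie above 0, and from library 3 alone the cart3 value there is 0.08.

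Between doses, 10 µg/L against 1 µg/L gave 0 of the 7 genes and 0 of all genes (0%). At an unadjusted p under 0.05 this contrast had 0 of the 7, beside 550 of all genes (2.88%). DESeq2 called 0 of the 7, beside 4 of all genes, and limma-voom 0, beside 0 of all genes. The log2 fold changes of the 7 ran from -0.21 (avp) to 0.21 (hcrt). The comparison of 10 µg/L with 0.1 µg/L called 2025 of all genes (10.6%) and 0 of the 7. At an unadjusted p under 0.05 it had 4 of the 7, beside 5582 of all genes (29.2%). DESeq2 called 1 of the 7 there, tac1, beside 3393 of all genes, and limma-voom 0, beside 1989 of all genes. The means of tac1 were 29.5 ± 4.25 CPM at 10 µg/L (SD, n = 5) and 46.8 ± 18.9 CPM at 0.1 µg/L (n = 3), a log2 fold change of -0.66 (edgeR adjusted p = 0.0799). Those of npy were 24.4 ± 4.85 CPM at 10 µg/L and 39.5 ± 15.3 CPM at 0.1 µg/L, a log2 fold change of -0.7 (edgeR adjusted p = 0.0887). Between these doses cart3 averaged 16.3 CPM at 10 µg/L and 15.5 CPM at 0.1 µg/L, with a log2 fold change of 0.07 and an interval from -0.37 to 0.51. The comparison of 1 µg/L with 0.1 µg/L called 37 of all genes (0.194%) and 0 of the 7. At an unadjusted p under 0.05 it had 3 of the 7, beside 4256 of all genes (22.3%). DESeq2 called 0 of the 7 there, beside 1434 of all genes, and limma-voom 0, beside 63 of all genes. Both contrasts rest largely on libraries 1 and 2 of the 0.1 µg/L group, since without them only library 3 is left. Without its library 3, edgeR called 4 of the 7 in each contrast. Of all genes it then called 7151 in 10 against 0.1 µg/L and 6096 in 1 against 0.1 µg/L, where the main fit tested 19092.

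A dose trend was fitted as the slope per step of the series control, 0.1, 1 and 10 µg/L, taken as evenly spaced. It was called for 216 of all genes (1.13%) and for 0 of the 7. The largest slope of the 7 in size was that of cart3, at 0.2 log2 units a step (SE 0.06, edgeR unadjusted p = 0.00506, adjusted p = 0.145). DESeq2 called this slope, beside 652 of all genes, and limma-voom called 0 of the 7, beside 255 of all genes. The slopes of the other 6 genes ran from -0.14 (vip) to 0.12 (oxt). The F test over the 4 groups called 447 of all genes (2.34%; 36 without libraries 1 and 2 at 0.1 µg/L) and 0 of the 7. The lowest unadjusted p in that edgeR test was 0.0144 for oxt (adjusted p = 0.14), then 0.0168 for cart3 and 0.0169 for npy (adjusted p = 0.151 each) and 0.0436 for tac1 (adjusted p = 0.227). DESeq2's likelihood ratio test called 3 of the 7 (npy, oxt and cart3), beside 2289 of all genes, and limma-voom 0, beside 238 of all genes.

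To set the genes against each other, levels were divided by exonic length, as CPM per kilobase of exon (RPKM). In control the order was vip at 41.9 ± 12.5 RPKM, tac1 at 34.5 ± 6.63, cart3 at 16.4 ± 1.56, oxt at 11.8 ± 3.21, npy at 11.0 ± 1.68, avp at 7.15 ± 2.52 and hcrt at 2.71 ± 1.34 RPKM (SD, n = 4 each). Control ranges did not overlap between tac1 and cart3 or between npy and avp, while the other neighbours in that order overlapped in range. Levels per kilobase of vip exceeded those of tac1 in 11 of 16 libraries, those of tac1 exceeded cart3 in 15, and those of cart3 exceeded oxt in 13. The level of oxt per kilobase exceeded that of npy in 13 of 16 libraries but in only 2 of the 4 controls. The level of avp per kilobase exceeded that of hcrt in all 16 libraries, by a median ratio of 5.01. The spread between libraries of a group also differed by gene: the biological coefficient of variation from the edgeR fit was 20.6% for cart3, with 17% of tested genes lower, and 44.5% for hcrt, with a median over all tested genes of 32.1%.

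**Figure D3:**
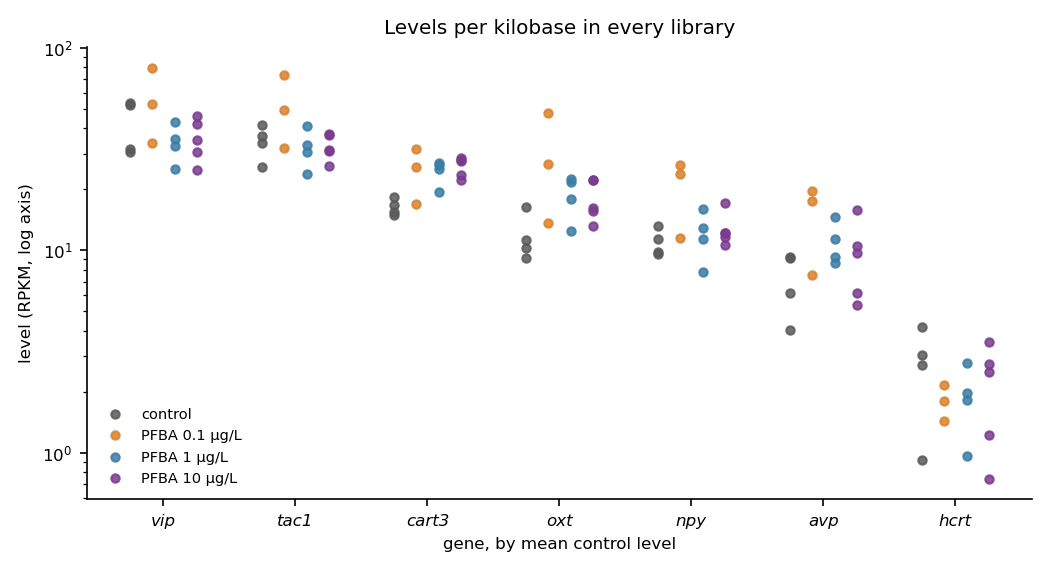
Level per kilobase in RPKM (y axis, log scale) of the 7 genes (x axis, in order of the mean control level) in every library, coloured by group. The genes run from vip, with a control mean of 41.9 RPKM, to hcrt, with 2.71 RPKM, and libraries of all groups overlap for most genes.

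Over the 14 libraries other than libraries 1 and 2 at 0.1 µg/L, the log2 CPM values of npy and tac1 had a Pearson correlation of 0.74, those of oxt and cart3 0.71, those of avp and cart3 0.65 and those of vip and tac1 0.63. The lowest of the 21 pairs was hcrt with oxt, at -0.36. The values of a pair come from the same libraries, so they share depth, scaling and group means, and the correlations are given as descriptions. With all 16 libraries the same pairs had values of 0.89, 0.74, 0.71, 0.83 and -0.26. Among 13203 tested genes with a mean of at least 2 CPM, the 3 most like each member were picked by the same correlation over 14 libraries. For hcrt they were unc5c, sacs and ano2a (0.82 to 0.80), for npy ubtfl, prkag2a and c1d (0.91 to 0.90), and for avp nkap, nthl1 and psmg1 (0.88 to 0.86). For oxt they were nmnat2, ap3s2 and atp6v1d (0.91 to 0.87), and for cart3 prkacab, ap2a1 and fam234b (0.91 each). For vip they were gabrr1, pkib and asap1b (0.94 to 0.93), and for tac1 C10H17orf49, dynlrb1 and fundc1 (0.88 to 0.85). The highest of many correlations is high by selection, and some did not hold over all 16 libraries: asap1b with vip was -0.12 there.

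Other neuropeptide ligands were read from a list of 41 symbols, of which 36 were in the tables and 31 were tested. None passed the test at any dose against control. All 31 had a log2 fold change above 0 at 0.1 µg/L, with a median of 0.54, against 44.5% of all genes and a median of -0.09. Without libraries 1 and 2 of that dose, 13 of 31 were above 0, with a median of -0.06. At 1 µg/L 23 of 31 were above 0 (median 0.16, against -0.02 over all genes), and at 10 µg/L 19 of 31 (median 0.1, against -0.02). The ligands with the lowest F test p were vipb, the second vip gene, and galn (galanin, a sleep-promoting peptide in zebrafish). Mean levels of vipb were 1.90 CPM in control, 4.80 at 0.1 µg/L, 1.28 at 1 µg/L and 1.24 at 10 µg/L, and its edgeR F test had an adjusted p of 0.0579. Its log2 fold change at 0.1 µg/L was 1.32, and 0.65 from library 3 alone. Mean levels of galn were 5.92 CPM in control, 11.8 at 0.1 µg/L, 6.04 at 1 µg/L and 5.97 at 10 µg/L (edgeR F test adjusted p = 0.209), with a log2 fold change at 0.1 µg/L of 0.99, and -0.1 from library 3 alone.

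Of 39 receptor symbols, 33 were in the tables and 22 genes were tested, none of which passed against control. Their median log2 fold change was -0.37 at 0.1 µg/L, where 3 of 22 were above 0, and -0.09 at 1 µg/L and -0.1 at 10 µg/L. Without libraries 1 and 2 at 0.1 µg/L, 29 receptors were tested and their median at that dose was 0.06. The lowest F test p values were those of vipr1b, a receptor of vip (log2 fold change -1.42 at 0.1 µg/L, edgeR adjusted p = 0.188, and -0.38 from library 3 alone), and mc4r, the melanocortin receptor that agouti-related peptide blocks (log2 fold change 0.23 at 10 µg/L, edgeR adjusted p = 0.943). The receptor of hypocretin, hcrtr2, had 8 to 37 reads a library, and the tachykinin receptors tacr1a and tacr1b had 0 to 5 and 0 to 13 reads and were not tested.

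None of the 17 genes tested for prohormone processing and dense-core vesicles passed against control. Their medians were -0.07 at 0.1 µg/L (-0.04 from library 3 alone), 0.12 at 1 µg/L and 0.08 at 10 µg/L. The vesicle protein gene chga (chromogranin A) had log2 fold changes of 0.67 at 0.1 µg/L (edgeR adjusted p = 0.0918; 0.08 from library 3 alone) and 0.08 at 10 µg/L (0.986). The row ENSDARG00000032126 of scg5, which acts with a prohormone convertase and has 2 identifiers in the tables, had 0.85 at 0.1 µg/L (edgeR adjusted p = 0.0858; 0.32 from library 3 alone) and 0.22 at 10 µg/L (0.837). The other scg5 row had 0.28 at 0.1 µg/L (edgeR adjusted p = 0.641) and -0.15 at 10 µg/L (0.983). None of the 22 tested transcription factors that specify the hypothalamus passed against control. Their medians were -0.2 at 0.1 µg/L (-0.06 from library 3 alone), 0.08 at 1 µg/L and 0.22 at 10 µg/L, and six3b and isl1 had the lowest F test p, with log2 fold changes at 10 µg/L of 0.47 and 0.33 (edgeR adjusted p = 0.354 and 0.636). In whole larvae, reads of these factors from outside the hypothalamus cannot be separated, and isl1 and arxa also stand in the enteroendocrine and islet list.

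**Figure D4:**
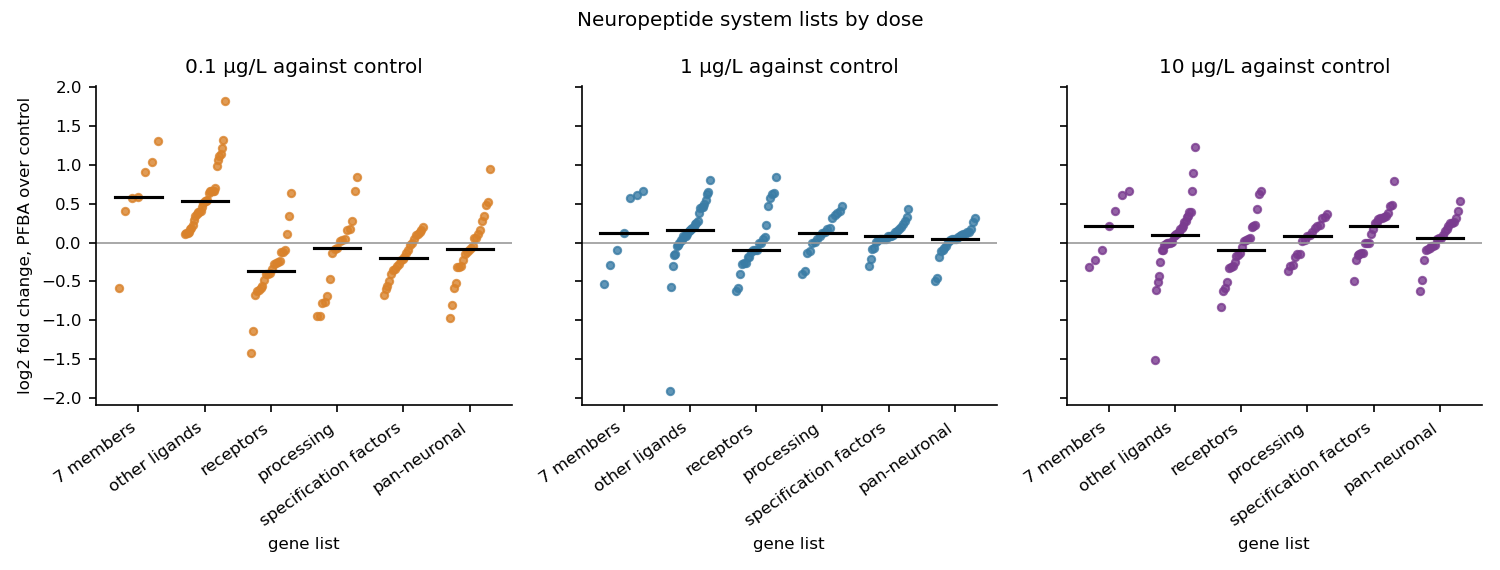
Log2 fold change of PFBA over control (y axis) of the 7 genes and of 5 gene lists (x axis) at each dose from all 16 libraries; points are genes in order of value and black bars are medians. At 0.1 µg/L the medians are 0.59 for the 7 genes, 0.54 for the other ligands and -0.37 for the receptors, values that rest on libraries 1 and 2 of that dose.

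The median log2 fold change of the 7 genes at 0.1 µg/L was 0.59 with 6 of 7 above 0, and 0.08 with 4 of 7 above 0 without libraries 1 and 2. It was 0.12 at 1 µg/L and at 10 µg/L 0.21, with 4 of 7 above 0 at each. Markers of other cell types were measured beside them. The 22 pan-neuronal markers, none of which passed against control, had summed levels of 7920 to 9408 CPM in control, 7992 to 8430 at 0.1 µg/L, 7628 to 9556 at 1 µg/L and 7790 to 9650 at 10 µg/L. Of these, gap43 and sypa had the lowest F test p, with log2 fold changes at 0.1 µg/L of 0.95 and -0.32 (edgeR adjusted p = 0.106 and 0.254), and 0.06 and -0.06 from library 3 alone. Scaled to the summed reads of those neuronal markers, the cart3 log2 fold change was 0.69 at 10 µg/L (edgeR adjusted p = 0.17), 0.63 at 1 µg/L and 0.72 at 0.1 µg/L. The 10 enteric neuron markers, none of which passed against control, had summed levels of 953.1 to 1100 CPM in control, 815.8 to 988.7 at 0.1 µg/L, 903.7 to 1130 at 1 µg/L and 854.6 to 1064 at 10 µg/L. Most of that sum was elavl4, with a mean of 774 CPM over the 16 libraries. Since elavl4 also stands in the pan-neuronal list, the sum does not measure gut neurons alone. The lowest F test p values of the enteric markers were those of vipb, given above, and ret. The log2 fold change of ret at 0.1 µg/L was -0.57 (edgeR adjusted p = 0.162), and -0.22 from library 3 alone. The comparison of 10 µg/L with 0.1 µg/L, which rests largely on libraries 1 and 2 of the lower dose, called 10.6% of all genes. It called 1 of 31 other ligands, which fell, and 5 of 22 specification factors, which rose. Of 17 processing genes it called 3, of which 1 rose and 2 fell. Of 22 pan-neuronal and 10 enteric neuron markers it called 2 each, with 1 of each rising and 1 falling.

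Of 13 tested rows of intestinal enterocyte markers, none passed against control, 7 fell in 10 against 0.1 µg/L, 1 fell in 1 against 0.1 µg/L, 3 fell along the dose trend and 4 passed the F test. Of all genes, these last 4 tests called 10.6%, 0.194%, 1.13% and 2.34%, in that order. The 13 rows summed to 205.7 to 487.4 CPM in control, 554.9 to 1340 at 0.1 µg/L, 249.7 to 512.5 at 1 µg/L and 144.5 to 460.2 at 10 µg/L. Every 0.1 µg/L library, library 3 included, was above every control library in that sum, and the median log2 fold change at that dose was 1.05, and 0.88 from library 3 alone. The lowest F test p values were those of mep1a.1 and anpepb, which passed that test (edgeR adjusted p = 0.00515 and 0.0125). Mean levels of mep1a.1 were 9.27 CPM in control, 25.9 at 0.1 µg/L, 4.17 at 1 µg/L and 3.06 at 10 µg/L, and those of anpepb 38.9, 80.6, 20.6 and 14.7 CPM in the same order. From library 3 alone their log2 fold changes at 0.1 µg/L were 0.88 and 1.35. The part of gut RNA in the 0.1 µg/L values of vip, tac1 and the other members was not tested. Of 9 tested enteroendocrine and islet markers, 1 rose at 10 µg/L, where 0.225% of all genes passed: neurod1, a proneural factor also used in retina and brain (log2 fold change 1.32, edgeR adjusted p = 0.0116). The 12 glial and myelin markers summed to 3010 to 3640 CPM in control and 3242 to 4290 at 10 µg/L, and none passed. Among them mbpa and slc1a2b had the lowest F test p, with log2 fold changes at 10 µg/L of -0.14 and 0.27. The log2 fold change of gh1 was 0.74 at 10 µg/L (edgeR adjusted p = 0.824).

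Circadian clock genes differed in the same libraries. Of 30 tested, 10 passed at 10 µg/L, beside 0.225% of all genes: cry3b, aanat2, rorcb, arntl1a and nfil3-5 rose, and bhlhe41, dbpb, ciarta, per3 and nr1d1 fell. At 1 µg/L, 2 passed (beside 0.0681% of all genes), per2 and cry3b, which rose, and at 0.1 µg/L none did. The 1 µg/L libraries were split: the summed level of the 30 genes was 6090 CPM in library 5, within the control range of 4809 to 6454. It was 3356, 3023 and 2867 CPM in libraries 1, 2 and 4, within the 10 µg/L range of 2838 to 4337. The spread at 1 µg/L was accordingly wide, as for nr1d1, at 172 ± 297 CPM (SD, n = 4). The 0.1 µg/L libraries were split in that sum as well. Libraries 1 and 2 had 3669 and 4093 CPM, within the 10 µg/L range, and library 3 had 5349 CPM, within the control range. Without libraries 1 and 2 at 0.1 µg/L, 8 of 31 tested passed at 10 µg/L and 1, per2, at 1 µg/L: nr1d1, dbpb and ciarta no longer passed at 10 µg/L, and cry2 did. The gene aanat2, which encodes the enzyme that times melatonin synthesis in the pineal gland, averaged 17.3 CPM at 10 µg/L and 5.44 CPM in control, with an edgeR log2 fold change of 1.66 (adjusted p = 0.0116). In these libraries the clock-linked peptide genes vip and avp did not pass, at -0.23 and 0.41 at 10 µg/L. The part of the clock state of the larvae in the cart3 values was not tested.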

How the data were processed

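Larval RNA was poly(A)-selected and sequenced from strand-specific libraries, per the labels' protocols. Per the submitters' processing notes, the tools were fastp, HISAT2, featureCounts and DESeq2, and the build GRCz11. The authors deposited 3 tables of raw read counts per gene, 1 for each dose, sharing the control columns, with gene lengths and their own log2 fold changes. The p-value and adjusted p-value columns are deposited from the authors' own test. The strand setting of the counting is not given in the sources used here. Column numbers of control and 1 µg/L differ from the sample titles, so these columns were assigned by group only, and libraries carry the number in the deposited column.

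The tables, with 24975, 25272 and 25531 genes at 0.1, 1 and 10 µg/L, were joined into 26183 genes; genes missing from a table were set to 0 in its exposed libraries (10528 cells). The 2 most similar libraries (Pearson correlation 0.9892 of log2 CPM) differed by far more than counting noise (chi-square per degree of freedom 7.67). The main test was edgeR 4.0.16 (R 4.3.3, filterByExpr, TMM factors, robust quasi-likelihood fit of all 16 libraries, 12 residual degrees of freedom), with Benjamini-Hochberg adjustment over 19092 genes. It was checked on simulated data for 10 µg/L against control only. The simulated data held no deviating libraries like libraries 1 and 2 at 0.1 µg/L, so the check does not cover their effect on the fit. CPM use TMM-scaled library sizes, and log2 CPM a prior count of 2. DESeq2 1.42.0 and limma 3.58.1 (voom), other scalings and filters, left-out libraries and a replicate block were alternatives.

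The members and lists were chosen with earlier results of these data known. All members are named; values by library are given for the 4 with the lowest F test p; of each list the genes called against control are named, otherwise the 2 with the lowest F test p. Values of the lists and their named genes without libraries 1 and 2 at 0.1 µg/L were an alternative chosen after seeing the data.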

Additional observations from a re-analysis of the deposited data

Results flagged for a closer look

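In the 10 µg/L group, npy in library 3 stood at 32.8 CPM, far from the other 4 libraries of that group at 20.3 to 23.3 CPM. The gap to its nearest neighbour was 0.758 of the whole range. The 0.1 µg/L group, with n = 3, was too small for this check and was left out. Of 21 sets of a gene and a group that were examined in this way, this was the only such sample, and chance gives about 1 in 20. Without that library the log2 fold change of npy at 10 µg/L against control was 0.08, in place of 0.21.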

How the results depend on the processing

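Of the 7 genes, DESeq2 called 1 at 10 µg/L (beside 239 of all genes) and 3 at 0.1 µg/L (beside 1396) against control. It called 1 in 10 against 0.1 µg/L (beside 3393), 1 in the dose trend (beside 652) and 3 in the F test (beside 2289). Library sizes from pan-neuronal reads gave 2 (npy and tac1) in 10 against 0.1 µg/L, beside 1755 of all genes. Leaving out each library in turn gave 0 to 5 in 0.1 µg/L against control, 0 to 4 in 10 against 0.1 and in 1 against 0.1 µg/L, and 0 to 5 in the F test, the highest each time without library 3 at 0.1 µg/L, and 0 elsewhere. The causes were not tested. At 0.1 µg/L the log2 fold change of vip changed sign with library size alone (-0.15) and without libraries 1 and 2 (-0.27), and that of tac1 without those libraries (-0.09). With each library left out, tac1 ran from -0.2 to 0.02 at 10 µg/L and from -0.24 to 0.04 at 1 µg/L, and npy from -0.05 to 0.3 at 1 µg/L. Of the other fold changes of the 7 genes under these alternatives, 551 kept direction and call and 9 became called.

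Same-numbered libraries did not deviate together: 18 pairs had a median correlation of -0.1, 5 were over 0.1, and 4 of 16 libraries correlated best with their own number. The 77 pairs of libraries with other numbers in other groups had a median correlation of 0.01, and 28 were over 0.1. With the replicate number as a block, 0 of the 7 genes were called in each of the 8 comparisons. The block called 8 of all genes at 10 µg/L, 6 at 1 µg/L, 544 in 10 against 0.1 µg/L, 18 in 1 against 0.1 µg/L and 53 in the F test. Leaving out each library in turn, edgeR called 10 (without control library 3) to 131 (without library 5 at 1 µg/L) of all genes at 10 µg/L, where 43 were called with all 16. At 1 µg/L it called 5 (without library 2 at 1 µg/L) to 105 (without library 5), in place of 13. The range was 0 to 6256 at 0.1 µg/L, 86 to 7151 in 10 against 0.1 µg/L, 2 to 6096 in 1 against 0.1 µg/L, 109 to 845 in the trend and 58 to 5349 in the F test, the highest each time without library 3 at 0.1 µg/L. Over the other alternatives, the count of all genes called ran from 36 to 239 at 10 µg/L, 6 to 57 at 1 µg/L, 0 to 1396 at 0.1 µg/L, 0 to 3393 in 10 against 0.1 µg/L, 0 to 1434 in 1 against 0.1 µg/L, 106 to 652 in the trend and 36 to 2289 in the F test. Depth limits hcrt most, with 206 reads in all.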
